A study of Mus musculus and Homo sapiens with 41 samples.

Results

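The regions described here are stretches of the mouse genome that carried monoubiquitinated Lys119 of histone H2A (H2AK119ub) in wild-type (WT) haematopoietic stem and progenitor cells (HSPCs) and still carried it in Tet2-/- HSPCs. They were chosen by the peak lists themselves: a base counted as marked when peaks of at least 2 of 3 libraries covered it, marked bases of Tet2-KO shNC HSPCs on chromosomes 1 to 19, X and Y were merged, and a merged region was kept when it shared at least 1 bp with the marked bases of WT shNC HSPCs. This gave 907 kept regions (437212 bp) among 1149 marked regions of Tet2-KO shNC HSPCs, and among 44119 regions marked in any of the 9 mouse H2AK119ub groups. Their cover in the shNC HSPCs therefore describes the choice and is not a finding. The other 242 Tet2-KO regions (82854 bp) touched no marked base of WT cells and are called KO-only. Of 3638 marked WT regions, 895 overlapped a kept region and 2743 (1069665 bp) overlapped no marked base of Tet2-KO cells, and these are called lost.

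H2AK119ub is written by Polycomb repressive complex 1 and is a mark of repressed chromatin, found above all at CpG-rich promoters. It is removed by the PR-DUB complex, whose catalytic subunit is BAP1 and with which the methyl-CpG-binding-domain protein MBD6 associates. TET2 oxidizes 5-methylcytosine, in RNA as well as in DNA, and NSUN2 is one of the enzymes that place it on RNA.

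The series measured H2AK119ub by CUT&Tag, in which an antibody directs a transposase to the mark in situ. HSPCs were Lin- c-Kit+ bone marrow cells from mice of 6 to 8 weeks of both sexes, Tet2-/- mice backcrossed onto C57BL/6 and WT C57BL/6 mice, and they were cultured with cytokines for 7 days after electroporation of the small hairpin RNA. There were 3 libraries each of Tet2-KO HSPCs with shMbd6 (hairpin against Mbd6), Tet2-KO HSPCs with shNC (control hairpin) and WT HSPCs with shNC. Mouse embryonic stem cells (mESCs), a Tet2-/- line and a WT line obtained from another laboratory and grown in LIF with inhibitors of GSK3 and MEK, gave 3 libraries each of untransfected Tet2-KO and WT cells and of siRNA-treated cells, namely Tet2-KO cells with siMbd6, siNsun2 or siNC and WT cells with siNC. The labels do not say whether the untransfected and the siRNA-treated libraries were made together, and they were analysed as separate sets. BAP1 was profiled in 2 libraries of WT mESCs. In all, 29 of the 41 libraries of the series were used. The labels number the replicates but do not say whether they came from separate animals or cultures, so p-values measure the spread between these libraries, which may be technical. Genotype and cell line cannot be told apart in mESCs, since each genotype is 1 line.

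Each library was available as a list of peaks, so the measurement is the percentage of bases that peaks cover. It does not show how many cells carry the mark or how strongly each does. Libraries differed widely in the number of peaks: 7758 to 8401 in Tet2-KO shMbd6, 1619 to 1693 in Tet2-KO shNC and 4041 to 4702 in WT shNC HSPCs, against 26404 to 35617 in untransfected Tet2-KO and 24977 to 37465 in untransfected WT mESCs. Among siRNA-treated mESCs, Tet2-KO cells had 5672 to 12225 peaks with siMbd6, 4673 to 9326 with siNsun2 and 4314 to 9461 with siNC, and WT siNC cells had 24435 to 37496. All these counts include peaks on Drosophila chromatin added as a spike-in and on other sequence that was not used. Spike-in peaks numbered 85 to 95 in Tet2-KO shMbd6, 205 to 231 in Tet2-KO shNC and 48 to 56 in WT shNC HSPCs. They numbered 42 to 92 in the mESC H2AK119ub libraries and 0 in the 2 BAP1 libraries. The peaks used in Tet2-KO shNC HSPCs were 1398 to 1451. The part of the spike-in difference in the choice of kept and lost regions was not tested. Replicate 1 had the fewest peaks in every mESC group, and 2 replicates of a group shared between 0.266 and 0.525 of their joint bases. A repressive mark cannot check cell identity: the windows of 5 kb to either side of the start sites of 6 HSPC markers (Kit, Cd34, Gata2, Ptprc, Spi1, Myb) held no kept region, and peaks there summed to 298 to 493 bp in Tet2-KO shMbd6, 0 bp in Tet2-KO shNC and 0 to 304 bp in WT shNC HSPCs.

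The sequences that follow show the kinds of DNA found in the kept regions, with a lost promoter for comparison, all read from the plus strand of mm10 (RefSeq GRCm38.p6). The first is the middle 120 bases of the widest kept region of AGAGGC, the most frequent short tandem unit, with the first whole copy of the unit in capitals. A unit is named by the first of its rotations and reverse complements in alphabetical order, so that AACCCT is the repeat TTAGGG of telomeres read on its other strand.
AGAGGC, intergenic, chr7:35160341-35160460: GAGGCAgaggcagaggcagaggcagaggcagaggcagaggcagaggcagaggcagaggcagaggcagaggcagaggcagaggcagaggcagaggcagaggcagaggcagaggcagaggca
The next pair are the middle 180 bases of 2 wide repeat regions. The first lies in an intron of Stam2, in the widest kept region with a longer repeat unit, here of 54 bases. The second is the kept region at Gm10722 near the start of chromosome 9, whose sequence recurred in other kept regions.
Stam2 intron, chr2:52697652-52697831: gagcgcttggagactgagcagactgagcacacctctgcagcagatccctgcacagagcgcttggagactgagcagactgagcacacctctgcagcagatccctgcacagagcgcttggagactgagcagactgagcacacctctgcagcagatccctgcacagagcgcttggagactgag
Gm10722, chr9:3001146-3001325: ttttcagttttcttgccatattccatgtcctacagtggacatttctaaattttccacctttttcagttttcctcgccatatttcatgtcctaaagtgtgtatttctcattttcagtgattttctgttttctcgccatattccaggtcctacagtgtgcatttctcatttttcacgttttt
The last pair are the middle 300 bases of CpG-rich promoters, with each CpG in capitals: Aco1, the widest such kept promoter with a peak in all 27 H2AK119ub libraries, and Myh10, the widest lost one. They hold 23 and 22 CpGs.
Aco1 promoter, kept, chr4:40143166-40143465: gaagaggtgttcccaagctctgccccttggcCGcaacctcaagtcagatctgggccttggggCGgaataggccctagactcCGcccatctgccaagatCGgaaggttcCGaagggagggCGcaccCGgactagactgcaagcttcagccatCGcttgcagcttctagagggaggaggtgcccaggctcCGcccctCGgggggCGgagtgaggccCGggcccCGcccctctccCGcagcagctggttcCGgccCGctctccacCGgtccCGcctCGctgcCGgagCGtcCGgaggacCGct
Myh10 promoter, lost, chr11:68692087-68692386: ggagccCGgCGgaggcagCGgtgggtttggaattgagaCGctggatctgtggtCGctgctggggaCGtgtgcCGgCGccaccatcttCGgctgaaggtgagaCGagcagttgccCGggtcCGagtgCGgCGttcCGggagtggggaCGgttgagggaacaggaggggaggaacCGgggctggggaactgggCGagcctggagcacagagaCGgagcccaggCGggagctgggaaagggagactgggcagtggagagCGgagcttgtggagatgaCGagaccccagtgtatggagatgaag

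The kept regions were a mixture of promoters and repeats, whereas most of the lost regions were promoters. Of the kept regions, 321 (35.4%) lay within 1 kb of the start site of a protein-coding gene, against 1755 (64.0%) of the lost and 1 (0.413%) of the KO-only regions. Introns held 273 kept regions (30.1%), 442 lost regions (16.1%) and 89 KO-only regions (36.8%). Intergenic sequence held another 273 kept regions (30.1%), 346 lost regions (12.6%) and 141 KO-only regions (58.3%). The remaining kept regions were at start sites of other genes (24) or in exons (16). These shares describe classes defined by the same HSPC libraries and were not tested.

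By sequence, each region was put in the first of 4 classes that it met. A tandem repeat had central 300 bases that matched themselves over at least 0.8 of positions when shifted by up to 60 bases, and other repeats were at least 50% soft-masked in the reference. CpG-rich regions had a GC content of at least 50% and an observed over expected CpG ratio of at least 0.6, and the rest were unique and CpG-poor. Tandem repeats made up 340 kept regions (37.5%), 202 lost regions (7.36%) and 111 KO-only regions (45.9%). CpG-rich regions made up 296 kept (32.6%), 1651 lost (60.2%) and 2 KO-only regions (0.826%). There were 149 unique CpG-poor kept regions (16.4%) against 820 lost (29.9%), and 122 other-repeat kept regions (13.5%) against 70 lost (2.55%). Read the other way, 62.7% of the tandem repeats and 63.5% of the other repeats that were kept or lost were kept, against 15.2% of the CpG-rich and 15.4% of the unique CpG-poor regions. Of all kept bases 43.0% were soft-masked, against 8.71% of lost and 65.6% of KO-only bases.

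**Figure D1:**
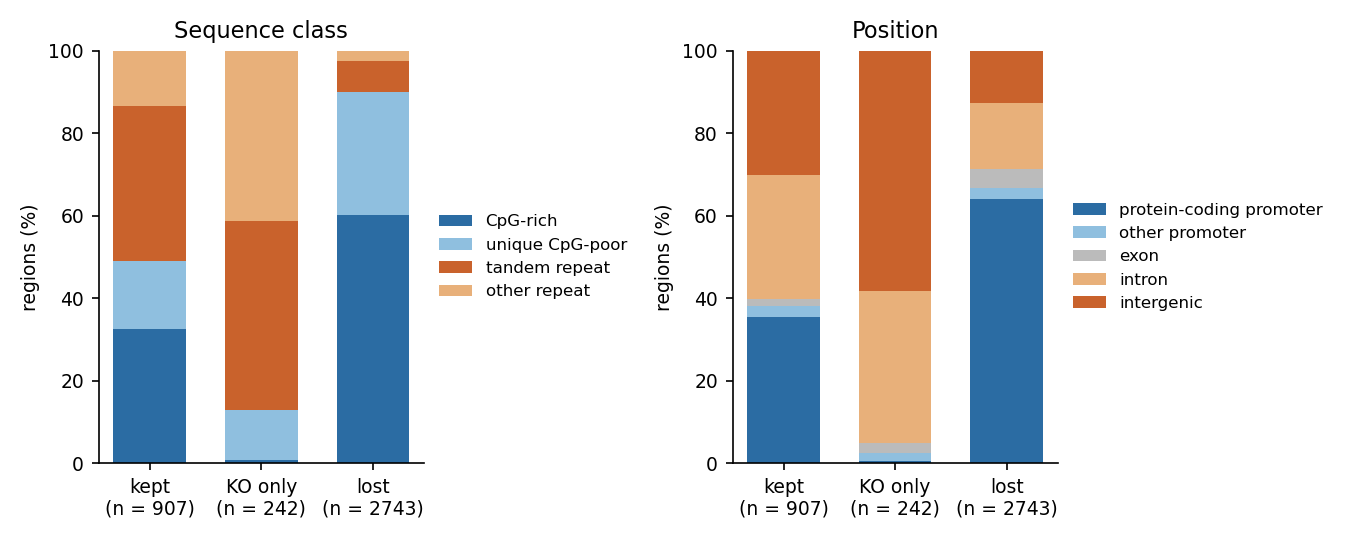
Share of regions (y axis, %) in each position class and each sequence class for kept (n = 907), lost (n = 2743) and KO-only (n = 242) regions. Tandem repeats fill 37.5% of the kept and 7.36% of the lost bar, and protein-coding promoters 35.4% of the kept and 64.0% of the lost bar.

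The promoters and the repeats lay in different places. Of the 296 CpG-rich kept regions, 257 lay at a protein-coding promoter, whereas 161 of the 340 tandem repeats were intergenic and 165 were in introns. The tandem repeats held few CpGs: 200 of the 340 had none. Their units were 3 to 8 bases long in 163 regions and 9 to 60 bases in 175. The commonest was AGAGGC, shown above, in 92 kept regions (10.1%), 60 of them intergenic and 31 intronic, followed by AACCCT in 24, ACAGC in 22 and ACATATAT in 10. Among lost regions AGAGGC was the unit of 6, and among KO-only regions of 17, the same number as AAGAG. At least 3 copies in a row of AGAGGC, searched on both strands, occurred in the central 300 bases of 122 kept regions (13.5%), 19 lost regions (0.693%) and 8 of 32851 promoters of 300 bases in RefSeq (0.0244%). At least 3 copies of AACCCT occurred in 67 kept (7.39%) and 2 lost regions (0.0729%) and in 0 of those promoters.

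Many of the repeats exist in several copies that short reads cannot tell apart, which bears on how reads were placed. The central 50 bases occurred more than once in the genome for 450 kept regions (49.6%), 298 lost regions (10.9%) and 186 KO-only regions (76.9%). They occurred more than 1000 times for 127 kept (14.0%), 16 lost (0.583%) and 81 KO-only regions (33.5%). The median AGAGGC region had a centre with 21361 copies. The part of read placement in the results was not tested.

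The AACCCT regions include the ends of chromosomes. Of the 24 regions, 14 reached the last sequenced base of their chromosome, on 14 different chromosomes, and their peaks ran 116 to 201 bases into the undetermined bases that close the assembly. A peak lay on 21 of the 24 in all 27 H2AK119ub libraries and on 22 of them in both BAP1 libraries. Their highest fold enrichment over the peak caller's background, averaged over the shMbd6 libraries, ran between 5.96 and 14.3 with a median of 11.3.

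A second family of repeats was that of the Gm10722 region. At least 5 of its 20-base words were found in 17 kept regions (1.87%), the Gm10722 region included, on chromosomes 2, 9, 12 and 14. They were found in 0 of the 242 KO-only and in 0 of the 2743 lost regions. Since the words came from a kept region, these counts are a description only. Of the 17, 12 lay on chromosome 9. A peak lay on 9 of the 17 in all 27 H2AK119ub libraries.

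The CpG-rich kept regions carried the short promoter motifs that the lost ones also carried. GGGCGG, the Sp and KLF motif, was in the central 300 bases of 81.8% of CpG-rich kept regions, 74.5% of CpG-rich lost regions and 35.7% of all RefSeq promoters. CCAAT, the NF-Y motif, was in 51.0% of the kept, 46.2% of the lost and 37.4% of all promoters. CCGGAAG, the ETS motif, was in 10.5% of the kept, 16.2% of the lost and 8.86% of all promoters. The YY1 motif AAGATGG (3.04%, 5.39% and 6.34%), the E-box CACGTG (7.77%, 11.2% and 7.15%) and the TATA box TATAAA (2.03%, 2.73% and 13.6%), each given for CpG-rich kept, CpG-rich lost and all promoters, were in less than 10% of the kept regions. All were searched on both strands, and a match describes the letters only.

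The kept regions were narrow and spread over the genome. Their median width was 407 bp (quartiles 311 and 536.5, range 12 to 3314). Chromosome 9 had the most per 10 Mb (5.06), followed by chromosome 7 (4.88), whereas chromosome X had 0.819 and no CpG-rich kept region. The widest lay on CT010467.1, a ribosomal RNA gene at chr17:39843180-39846493, with peaks in all 27 libraries but a mean highest fold enrichment of only 1.96 with shMbd6. Other regions over 2 kb lay in an intron of 2700054A10Rik (2435 bp), at Gm21738 (2325 bp), in the Stam2 intron (2323 bp), at chr13:74528530-74530814 (2285 bp) and at Gm10722 (2132 bp). Kept regions mostly sat inside the WT marked regions: 530 (58.4%) were wholly covered by them, 95.5% of all kept bases were, and 11 regions (1.21%) were covered by less than 50%.

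At the edge of the rule the overlap was small. Among the regions just inside were those in introns of Fam19a4 (3 bp of 501 shared), Zcwpw2 (12 of 12 bp) and Zfp704 (20 of 20 bp), and the region chr7:37876752-37877077 (25 bp of 326 shared). Just outside were KO-only regions in introns of Gm34667 (39 bp from a WT region), Fkbp14 (161 bp) and Sra1 (505 bp), and the intergenic regions chr1:93944833-93944947 (208 bp) and chr6:47776875-47777170 (726 bp). These 4 regions just inside were tandem repeats, and they are given as a description of the rule.

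Lists of genes that define blood cells or development had 0 or 1 member each near a kept region. Of 21827 protein-coding genes, 448 (2.05%) had a start site within 5 kb of a kept region and a further 2244 (10.3%) had only a lost region there. At that share a short list would hold few such genes or none, so these counts do not set the lists apart. Of 44 haematopoietic transcription factors 1 had a kept region, Zfpm1, the GATA1 cofactor also called FOG1, and 6 had only a lost one. No kept region lay at any of 19 HSPC receptors, 15 lymphoid markers, 39 Hox genes, 66 other developmental transcription factors, 17 pluripotency genes, 69 histone genes, 57 protocadherins, 49 ribosomal protein genes or 24 housekeeping genes. Those lists had 1, 0, 1, 6, 2, 3, 0, 10 and 4 genes with only a lost region, in the same order. None of 1106 olfactory and 327 vomeronasal receptor genes had one, and 2 and 1 had only a lost region. Single members with a kept region were Fcgr3, a low-affinity IgG receptor, of 19 myeloid markers, Gp9, a platelet glycoprotein, of 14 erythroid and megakaryocyte markers, Cdk4, a kinase of the G1 phase, of 32 cell cycle genes, Relb, a NF-kB subunit, of 28 inflammatory signalling genes, Fzd4, a WNT receptor, of 36 WNT genes, Impact of 21 imprinted genes, and Stag3 of 16 germline genes, whose region lies at the neighbouring promoter of Gpc2. Of these lists the cell cycle (7), WNT (7), inflammatory signalling (4), erythroid and megakaryocyte (1) and germline (1) ones had genes with only a lost region.

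Genes of the pathway itself were also among them. Cbx8, a chromobox subunit of Polycomb repressive complex 1, was the 1 of 28 Polycomb genes with a kept region, with 1 more at a lost region only, and Nsun2 and Kdm1b, a histone H3K4 demethylase, were the 2 of 20 genes on a list of PR-DUB and m5C genes, with 3 more at a lost region only. Of 410 zinc finger genes (Zfp symbols) 7 had a kept region and 41 only a lost one. Of 160 small nuclear and nucleolar RNA genes 5 had a kept region, namely Rnu3b2, Rny3 and 3 Snord14 genes that lie in introns of the chaperone gene Hspa8, and 20 only a lost one. Every one of these lists was chosen with earlier results of these data known, and the counts are set beside the 2.05% of all protein-coding genes without a test.

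In HSPCs the kept regions were covered to a similar extent in the 3 groups, as the rule requires of the shNC groups. Peaks of replicates 1, 2 and 3 covered 87.1%, 91.5% and 90.3% of kept bases in Tet2-KO shMbd6 cells, 83.4%, 87.3% and 88.3% in Tet2-KO shNC cells and 90.5%, 93.7% and 92.1% in WT shNC cells. For lost regions the group means were 78.9%, 5.91% and 79.6% in that order. The shMbd6 libraries did not enter the rule, and a peak lay on 798 of the 907 kept regions (88.0%) in all 3 of them and on 13 in none. Of the 296 CpG-rich kept regions, 294 had a peak in all 3 shMbd6 libraries. Because the peak lists differ in length, kept regions took up 10.5 ± 0.502% of all covered bases in Tet2-KO shMbd6, 56.9 ± 1.15% in Tet2-KO shNC and 20.1 ± 1.55% in WT shNC HSPCs (SD, n = 3 each). No test was made among these groups, which share the libraries that chose the regions.

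**Figure D2:**
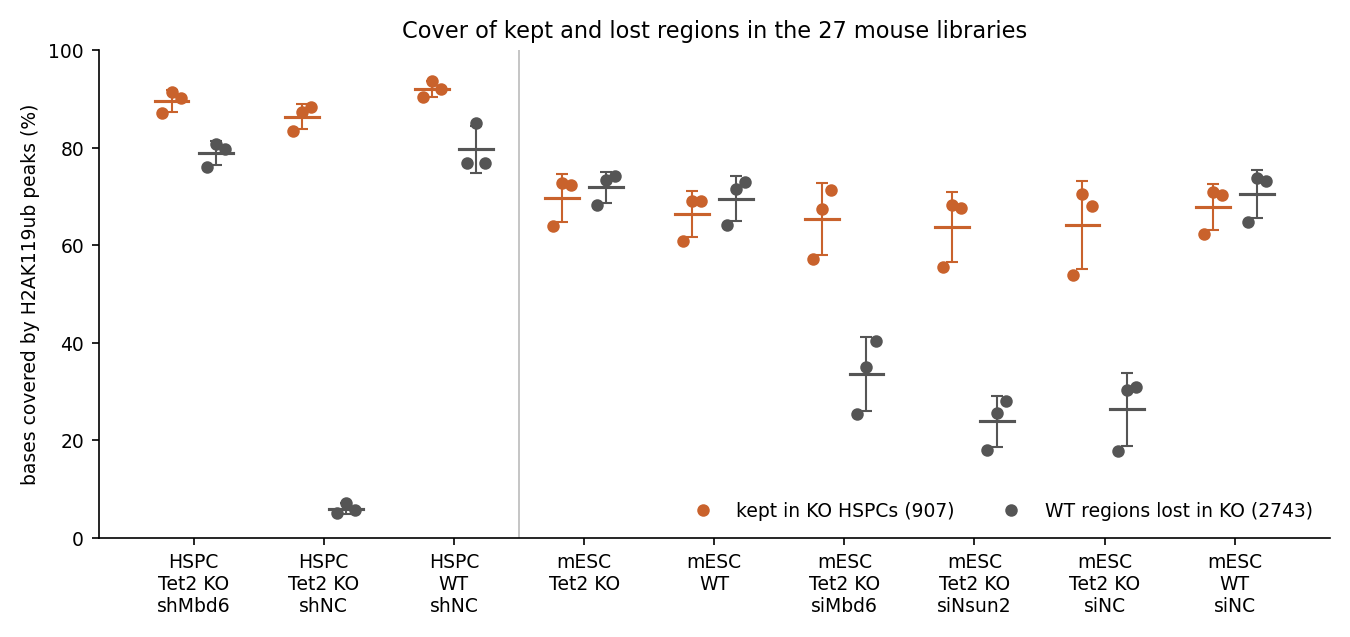
Percentage of bases covered by H2AK119ub peaks (y axis) in kept and in lost regions for the 9 mouse groups (x axis), with a point per library and the mean and SD of 3 libraries. Kept regions lie between 83.4% and 93.7% in HSPC libraries and between 53.9% and 72.7% in mESC libraries, and lost regions average 26.4% in Tet2-KO siNC against 70.5% in WT siNC mESCs.

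With shMbd6, whose libraries the rule did not use, cover was highest on the CpG-rich kept promoters (99.0%) among these classes of kept regions. ACAGC regions were covered to 95.7%, AACCCT regions to 94.2%, the 10 ACATATAT regions to 81.8% and AGAGGC regions to 80.1% in the same cells. In the shNC groups, whose cover only describes the choice, CpG-rich kept promoters had 79.3 ± 6.72% in Tet2-KO and 96.1% in WT cells, AGAGGC regions 93.4% and 91.1%, and ACATATAT regions 99.1% and 73.1%.

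The 5 promoters with the highest fold enrichment with shMbd6 were those of Ankrd50 (7.87), Numb (7.83), Pdia4 (7.70), Pja2 (7.50) and Mtrf1l (7.39). Numb encodes an inhibitor of Notch signalling, Pdia4 a disulfide isomerase of the endoplasmic reticulum, Pja2 an E3 ubiquitin ligase and Mtrf1l a mitochondrial release factor. Ankrd50, Numb and Pdia4 had a peak in all 27 libraries. Higher values came from repeats and introns, namely an intron of Chl1, a cell adhesion gene (16.6), chr12:3109725-3110241 (16.9), an intron of Gm33838 (14.8) and the AACCCT region chr3:159939259-159939851 (14.3). An ACATATAT array in an intron of Cdh18, a cadherin gene, reached 13.2, and a CpG-rich region in an intron of Cdk8, the kinase of the Mediator complex, 13.1.

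In mESCs, whose libraries the rule did not use, most kept regions were again marked. A peak lay on 343 of the 907 (37.8%) in all 18 mESC libraries and on all but 29 (3.20%) in at least 1, and 278 (30.7%) had a peak in all 27 H2AK119ub libraries. Of the lost regions, 196 of 2743 (7.15%) had a peak in all 18 mESC libraries and 277 (10.1%) in none. No CpG-rich kept region was without a peak in mESCs.

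Peaks on kept CpG-rich regions had a higher median fold enrichment than those on lost CpG-rich regions in each of the 18 mESC and 3 shMbd6 libraries, which did not enter the rule. In untransfected Tet2-KO mESCs the medians of replicates 1, 2 and 3 were 6.54, 6.35 and 6.42 on kept regions, against 5.70, 5.53 and 5.65 on lost ones. In Tet2-KO siNC mESCs they were 4.90, 4.49 and 4.58 on kept regions, against 4.54, 4.20 and 4.26 on lost ones. In both siNC and untransfected WT mESCs, kept medians of 6.00 to 6.76 stood against lost medians of 5.36 to 5.88. These values compare peaks within a library and cover only regions with a peak.

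Between untransfected Tet2-KO and WT mESCs, a difference of the kept regions was not detectable with the groups taken as unpaired. Peaks covered 64.0%, 72.7% and 72.3% of kept bases in Tet2-KO cells, against 60.9%, 69.2% and 69.0% in WT cells, and the groups overlapped. Each Tet2-KO library was nevertheless covered more than the WT library of the same number. The means were 69.7 ± 4.95% and 66.4 ± 4.70% (SD, n = 3 each), a difference of 3.31 percentage points with an exact two-sided permutation p of 0.5. With 3 libraries against 3 this test cannot go below 0.1, and over the 44 cover comparisons made the smallest Benjamini-Hochberg adjusted p was 0.44. CpG-rich kept regions were covered to 95.6 ± 1.12% in Tet2-KO and 93.6 ± 0.509% in WT cells, a small difference without overlap (exact permutation p = 0.1).

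Single regions were tested with limma on the percentage covered, over all regions with a peak in at least 3 libraries of the set (untransfected or siRNA-treated) and with Benjamini-Hochberg adjustment at 0.05. Of 742 kept regions tested in untransfected mESCs, 16 were covered more in Tet2-KO cells (2.16%, against 5.37% of all 33253 regions tested) and 4 less (0.539%, against 2.35%). None of the 313 kept promoters tested was called in either direction. At an unadjusted limma p under 0.05 there were 42 kept regions (5.66%, against 14.0% of all regions). Scaled to equal covered length per library, 6 kept regions were covered more (0.809%, against 4.44%) and 4 less (0.539%, against 2.06%). Leaving out Tet2-KO replicate 1, 2 or 3 left 5, 7 or 8 kept regions called (0.693%, 0.987% or 1.13%, against 1.70%, 2.82% or 2.61% of all regions). Without replicate 1 of both groups, 0 kept regions and 0 of all regions were called, with 21 kept regions at an unadjusted limma p under 0.05 (2.99%, against 9.51%).

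The largest of these differences were in repeats and other sequence away from promoters. The intergenic region chr15:37175513-37176226 was covered to 100% in all 3 Tet2-KO libraries and to 0% in all 3 WT libraries (limma adjusted p = 0.00131). Regions at chr15:38974832-38975366 and in an intron of Itgad, an integrin gene, averaged 96.4 ± 6.26% and 89.1 ± 6.28% in Tet2-KO cells and 0% in WT cells. An AAAGG repeat at chrX:92107314-92107662 was covered to 0% in Tet2-KO and to 100%, 94.8% and 95.7% in WT libraries. The region in an intron of Acap2 had 0% in Tet2-KO and 88.7 ± 5.21% in WT cells (limma adjusted p = 0.00134). Where a group stands at 0% or 100% in every library it adds no spread, so such p-values may be too small.

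A few of these regions split the 18 mESC libraries by line, untransfected and siRNA-treated alike. A peak lay on 3 kept regions (0.331%; 0.125% of all regions), those at chr15:37175513-37176226, chr15:38974832-38975366 and Itgad, in all 12 Tet2-KO and in no WT library. On 2 kept regions (0.221%; 0.619% of all regions), chrX:92107314-92107662 and chr10:3116171-3116966, a peak lay in all 6 WT and in no Tet2-KO library. For mESCs the genotype and the origin of the line cannot be told apart here.

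Impact, an imprinted gene, had a CpG-rich kept region in an intron that also differed between the lines. It was covered to 82.7%, 100% and 100% in untransfected Tet2-KO and to 40.5%, 0% and 0% in WT mESCs (limma adjusted p = 0.0258). With siNC it had 0%, 52.3% and 0% in Tet2-KO and 100%, 17.6% and 8.29% in WT cells, so the order of the groups was not the same with siNC, where the groups overlapped.

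In siNC-treated mESCs, the kept regions as a whole had overlapping cover in Tet2-KO and WT cells, whereas the lost regions were covered less in each Tet2-KO library than in any WT library. Peaks covered 53.9%, 70.4% and 68.1% of kept bases in Tet2-KO siNC cells, against 62.4%, 70.9% and 70.3% in WT siNC cells, with means of 64.1 ± 8.98% and 67.9 ± 4.74% (exact permutation p = 0.6). The lost regions, defined in HSPCs, were covered to 26.4 ± 7.49% in Tet2-KO siNC and 70.5 ± 4.94% in WT siNC cells, 44.2 percentage points apart with no overlap (p = 0.1, the smallest this exact permutation test can give). Within a library, kept cover exceeded lost cover by 36.1, 40.1 and 37.1 percentage points in Tet2-KO siNC cells, whereas in WT siNC cells the same difference was -2.47, -2.82 and -2.79 points. The group means of this difference were 40.5 points apart, with no overlap (exact permutation p = 0.1, adjusted 0.44). Over all kept bases, each Tet2-KO siNC library was covered less than the WT siNC library of the same number. A fall of the kept regions was not detectable between the groups taken as unpaired. The sign of the difference turned when Tet2-KO siNC replicate 1 was left out (+1.42 points).

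By sequence class the kept regions did not move together. CpG-rich kept regions were covered to 49.9%, 64.7% and 65.5% in Tet2-KO siNC cells, against 92.9%, 94.4% and 94.3% in WT siNC cells, a difference of 33.8 points with no overlap. Tandem repeats were covered to 53.3%, 72.3% and 68.7% in Tet2-KO siNC cells, against 49.7%, 61.4% and 61.1% in WT siNC cells, and the groups overlapped (exact permutation p = 0.4). Unique CpG-poor regions averaged 66.0 ± 7.46% against 59.2 ± 5.42%, and other repeats 67.5 ± 8.27% against 60.9 ± 5.60%, both with overlap and an exact permutation p of 0.3. CpG-rich cover minus tandem-repeat cover was -4.72 ± 2.44 points in Tet2-KO siNC and 36.5 ± 5.90 points in WT siNC cells (exact permutation p = 0.1).

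**Figure D3:**
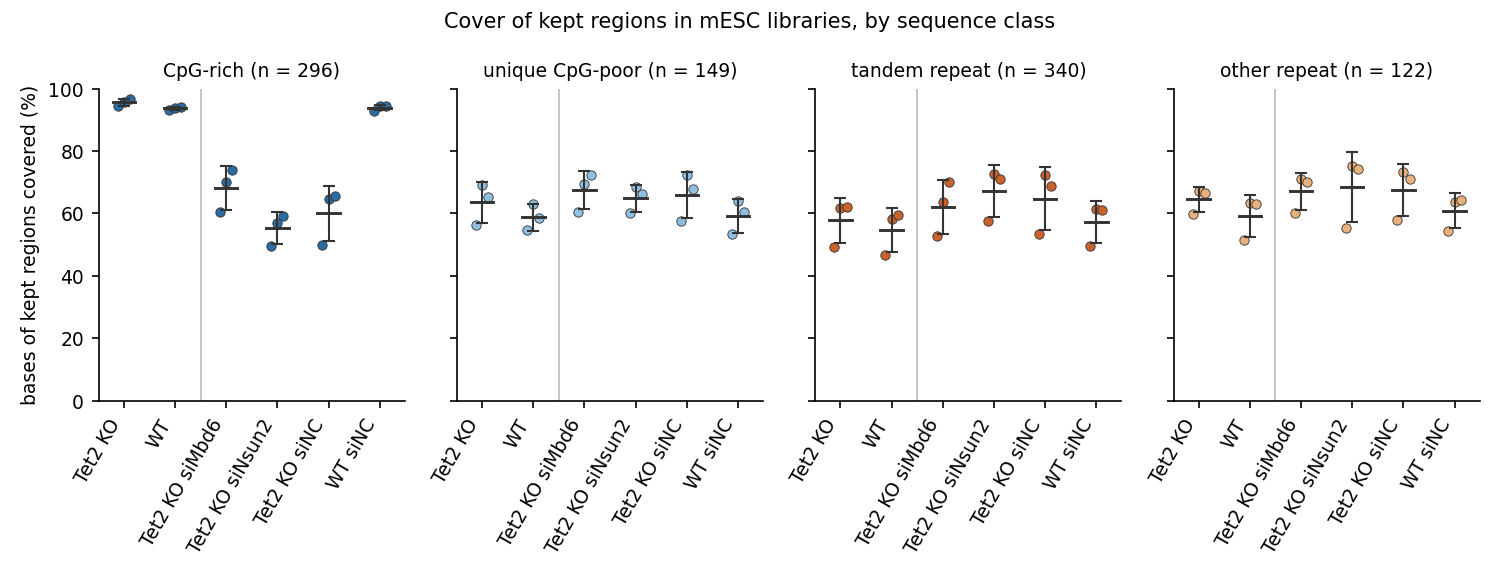
Percentage of kept bases covered by H2AK119ub peaks (y axis) in the 6 mESC groups (x axis), with a panel for each sequence class, a point for each library and bars for the mean and SD of 3 libraries. A grey line parts the untransfected from the siRNA-treated groups. CpG-rich regions average 60.05% in Tet2-KO siNC and 93.9% in WT siNC cells, and the groups of the other classes overlap.

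Among CpG-rich regions, the gap between the genotypes was smaller for kept than for lost ones. The lost ones were covered to 25.6 ± 7.44% in Tet2-KO siNC and 87.2 ± 4.09% in WT siNC cells. Kept minus lost cover among CpG-rich regions was 34.5 ± 1.35 points in Tet2-KO siNC and 6.71 ± 3.28 points in WT siNC cells, again with no overlap (exact permutation p = 0.1). In untransfected mESCs it was 6.43 ± 1.63 points in Tet2-KO and 7.71 ± 3.87 points in WT cells (exact permutation p = 0.7).

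Region by region, kept regions in Tet2-KO siNC cells were called lower in a smaller share than regions at large. Of 842 kept regions tested with limma, 14.1% were covered less, against 64.3% of all 25415 regions tested, and 89 (10.6%, against 2.93%) were covered more, with a median difference of -0.422 points, against -67.7 points over all regions. Of the 295 CpG-rich kept regions tested, 94 were covered less and 5 more. Of 303 tandem repeats 9 were covered less and 37 more, and of 105 other repeats 1 less and 14 more. Unique CpG-poor kept regions had 15 of 139 covered less and 33 more. Of 2231 regions that overlap a lost region, 1478 (66.2%) were covered less and 34 (1.52%) more.

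These calls depend on how the libraries are scaled and on the WT libraries. Scaled to equal covered length per library, the median over all regions moved to -25.5, and 28 kept regions were covered less (3.33%, against 39.1% of all regions) and 160 more (19%, against 5.55%). Without WT siNC replicate 1, 2 or 3, 80, 83 or 79 kept regions were called (9.82%, 10.2% or 9.73%, against 46.3%, 35.7% or 35.3% of all regions) in place of 208 (24.7%, against 67.3%). Without replicate 1 of every group 78 were called (9.62%, against 36.2%). The Tet2-KO siNC libraries covered 1.82 to 4.30 Mb and the WT siNC libraries 10.0 to 17.0 Mb, and the part of this gap in the calls was not tested.

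**Figure D4:**
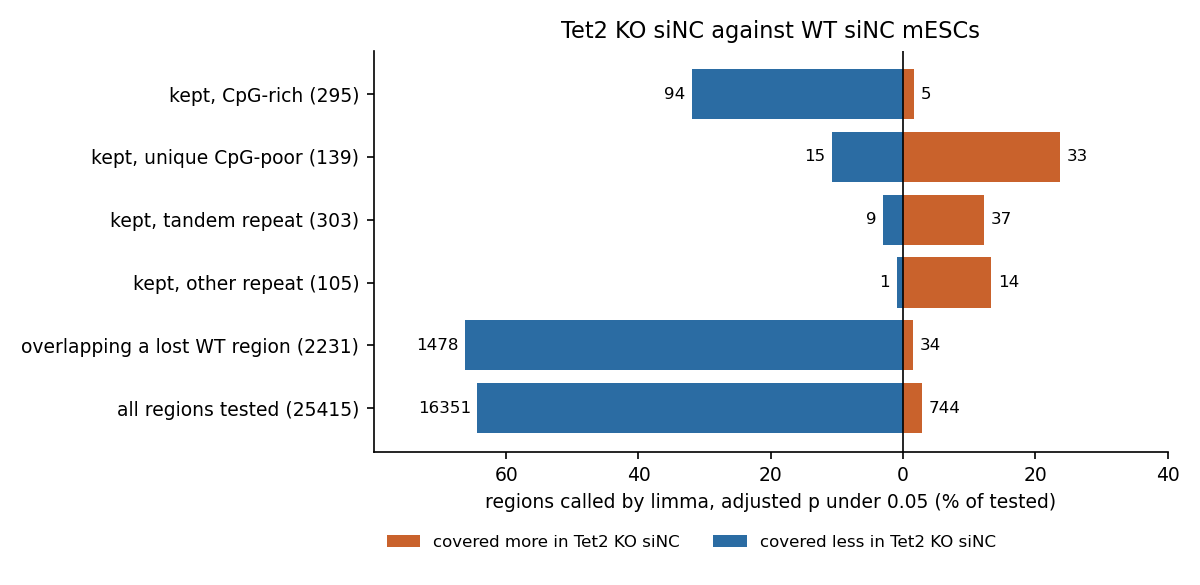
Share of tested regions that limma called at an adjusted p under 0.05 between Tet2-KO siNC and WT siNC mESCs (x axis, %; left, covered less in Tet2-KO; right, covered more), for 4 classes of kept regions, regions that overlap a lost region and all 25415 regions tested. Of kept CpG-rich regions 94 of 295 were covered less, and of kept tandem repeats 9 of 303.

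Named promoters show the pattern among those that were covered less. The kept promoter of Hdac4, a class IIa histone deacetylase, was covered to 0% in all 3 Tet2-KO siNC and 100% in all 3 WT siNC libraries (limma adjusted p = 5.34e-09). The same cover was seen at Hspa8, a constitutive heat shock chaperone, at Osbp, an oxysterol-binding protein, and at Rnf44, Dennd6b, Cryzl1 and Pgrmc2 (limma adjusted p between 5.34e-09 and 0.00267). Cbx8 had 0% in all 3 Tet2-KO siNC and 100% in all 3 WT siNC libraries (limma adjusted p = 0.00632), and Zfp574 likewise. Fzd4 had 0% in Tet2-KO siNC and 96.3 ± 5.54% in WT siNC cells. All of these but Fzd4 were covered to 100% in the 3 untransfected Tet2-KO libraries, where Fzd4 had 83.5%, 100% and 89.7%.

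Other promoters were still covered in part. Nsun2 was covered to 40%, 64.9% and 72.3% in Tet2-KO siNC and to 100% in all 3 WT siNC libraries (limma adjusted p = 0.0299). Relb had 58.6 ± 3.38% in Tet2-KO siNC and 94.3 ± 9.80% in WT siNC cells (limma adjusted p = 0.0375), and the region near Fcgr3 had 85.2 ± 6.64% and 100% (limma adjusted p = 0.00668). Zfpm1 was covered to 0%, 73.4% and 0% in Tet2-KO siNC and to 100% in all WT siNC libraries (limma adjusted p = 0.0380). Scaled to equal covered length, the differences of Nsun2, Relb and Fcgr3 had the opposite sign (+67.0, +78.4 and +130). Because this scaling raises any region with cover in the shorter Tet2-KO siNC libraries, it cannot decide the direction at single regions.

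The kept regions that were covered more were mostly repeats and distal sequence. The AACCCT regions at chr3:159939259-159939851, chr16:98107323-98107941, chr19:61331119-61331734 and chrX:170758064-170758671 averaged 85.0%, 82.1%, 84.4% and 83.6% in Tet2-KO siNC cells, against 73.6%, 70.7%, 74.0% and 72.1% in WT siNC cells (limma adjusted p between 0.00638 and 0.0200). Over all 24 AACCCT regions, the mean cover was 83.5 ± 1.49% in Tet2-KO siNC and 68.2 ± 4.27% in WT siNC cells (SD, n = 3 each). The region chr6:47777927-47778307, near the Y RNA gene Rny3, was covered to 100% in all 3 Tet2-KO siNC and to 73.8%, 74.3% and 72.7% in WT siNC libraries (limma adjusted p = 1.29e-05). The intron of Chl1 averaged 80.3 ± 3.07% in Tet2-KO siNC and 71.6 ± 0.633% in WT siNC cells (limma adjusted p = 0.0368). In an intron of Slc22a3, an organic cation transporter gene, cover was 100%, 66.5% and 100% in Tet2-KO siNC and 0% in all WT siNC libraries, but 0% in the 3 untransfected Tet2-KO libraries.

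Knockdown of Mbd6 in Tet2-KO mESCs left the kept regions as a whole within the spread of the replicates. Peaks covered 57.1%, 67.4% and 71.4% of kept bases with siMbd6, against 53.9%, 70.4% and 68.1% with siNC, a difference of 1.19 points (exact permutation p = 0.7). CpG-rich kept regions were covered to 60.4%, 70.2% and 73.9% with siMbd6, against 49.9%, 64.7% and 65.5% with siNC, and the groups overlapped (difference 8.12 points, exact permutation p = 0.3). Each siMbd6 library was covered more there than the siNC library of the same number. Tandem repeats averaged 62.1 ± 8.78% with siMbd6 and 64.8 ± 10.1% with siNC. Within a library, CpG-rich minus tandem-repeat cover was 7.78, 6.63 and 3.88 points with siMbd6, against -3.39, -7.53 and -3.23 points with siNC, with no overlap (exact permutation p = 0.1). Kept minus lost cover was 31.7 ± 0.629 points with siMbd6 and 37.8 ± 2.06 points with siNC, also with no overlap (exact permutation p = 0.1).

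Of 842 kept regions tested with limma, 1 was covered more (0.119%, against 0.138% of all regions) and 1 less (0.119%, against 0.0236%) with siMbd6. The promoter of Mafa, a transcription factor of pancreatic beta cells, was covered to 80.3%, 58.0% and 60.9% with siMbd6 and to 0% in all 3 siNC libraries (limma adjusted p = 0.00177). The promoter of Hmgcs1, the HMG-CoA synthase of sterol synthesis, had 0% in all 3 siMbd6 and 100% in all 3 siNC libraries (limma adjusted p = 6.14e-07). At an unadjusted limma p under 0.05 there were 37 kept regions (4.39%, against 4.13% of all regions). Leaving out 1 library of either group gave 3 to 6 kept regions called (0.358% to 0.721%), against 56 to 270 of all regions (0.224% to 1.07%). Without replicate 1 of every group 0 kept regions and 0 of all regions were called, and with scaling to equal covered length 0 kept regions and 3 of all regions. At an unadjusted limma p under 0.05 there were then 42 kept regions without replicate 1 (5.18%, against 8.76%) and 29 with scaling (3.44%, against 4.92%).

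Knockdown of Nsun2 likewise left the kept regions within the spread. Peaks covered 55.5%, 68.2% and 67.7% of kept bases with siNsun2, against 53.9%, 70.4% and 68.1% with siNC, a difference of -0.338 points (exact permutation p = 0.9). CpG-rich kept regions had 55.3 ± 5.05% with siNsun2 and 60.05 ± 8.77% with siNC, and tandem repeats 67.0 ± 8.32% and 64.8 ± 10.1%. Each siNsun2 library was covered less on CpG-rich kept regions, and more on tandem repeats, than the siNC library of the same number. CpG-rich minus tandem-repeat cover was -11.7 ± 3.89 points with siNsun2 and -4.72 ± 2.44 points with siNC, with no overlap (exact permutation p = 0.1). The siNC libraries are shared with the siMbd6 comparison.

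Limma called 0 kept regions covered more (0.0197% of all regions) and 3 less (0.356%, against 0.0354%) with siNsun2. Hmgcs1 had 0% in all 3 siNsun2 and 100% in all 3 siNC libraries (limma adjusted p = 6.05e-07). Tfb1m, a mitochondrial rRNA methyltransferase gene, had 0% with siNsun2 and 88.0%, 80.3% and 100% with siNC (limma adjusted p = 0.000858). Tmem256 had 0% with siNsun2 and 51.1%, 65.6% and 63.6% with siNC (limma adjusted p = 0.0313). At an unadjusted limma p under 0.05 there were 50 kept regions (5.94%, against 2.70% of all regions). Leaving out 1 library of either group gave 3 to 7 kept regions called (0.357% to 0.832%), against 18 to 78 of all regions (0.0720% to 0.308%). Scaling gave 0 kept regions and 9 of all regions, and leaving out replicate 1 of every group gave 0 of either. At an unadjusted limma p under 0.05 there were 44 kept regions in each of these fits (5.23% with scaling, against 4.28% of all regions, and 5.43% without replicate 1, against 7.35%).

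BAP1, the deubiquitinase of the mark, was found more on kept than on lost regions in WT mESCs. A BAP1 peak of at least 1 of the 2 libraries lay on 292 kept regions (32.2%), 72 lost regions (2.62%) and 40 KO-only regions (16.5%), and a peak of both libraries lay on 166 (18.3%), 10 and 20. The share over all mouse H2AK119ub regions is not given here, so these counts have no background beyond the 3 classes. The series holds no library with a control antibody, and the part of signal that any antibody would give was not tested. Of the BAP1 peaks themselves, 227 of 2013 (11.3%) in replicate 1 and 229 of 2233 (10.3%) in replicate 2 overlapped a kept region, against 35 (1.74%) and 47 (2.10%) that overlapped a lost one. BAP1 peaks covered 24.9% of kept bases in either library, against 0.899% and 1.26% of lost bases.

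The difference was there in each sequence class. Of CpG-rich regions, 50 of 296 kept (16.9%) and 17 of 1651 lost (1.03%) had a BAP1 peak. Of tandem repeats, 122 of 340 kept (35.9%) and 31 of 202 lost had one, and of other repeats 59 of 122 kept (48.4%) and 13 of 70 lost. Of unique CpG-poor regions, 61 of 149 kept (40.9%) and 11 of 820 lost had one. The repeat units differed among themselves: BAP1 peaks covered 92.6% of AACCCT bases, 61.1% of ACAGC, 8.01% of AGAGGC and 0% of ACATATAT bases. No test over regions was made, since the regions of a library are not replicates. Multi-copy sequence and BAP1 moved together in some units and not in others, and the part of read placement was not tested.

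**Figure D5:**
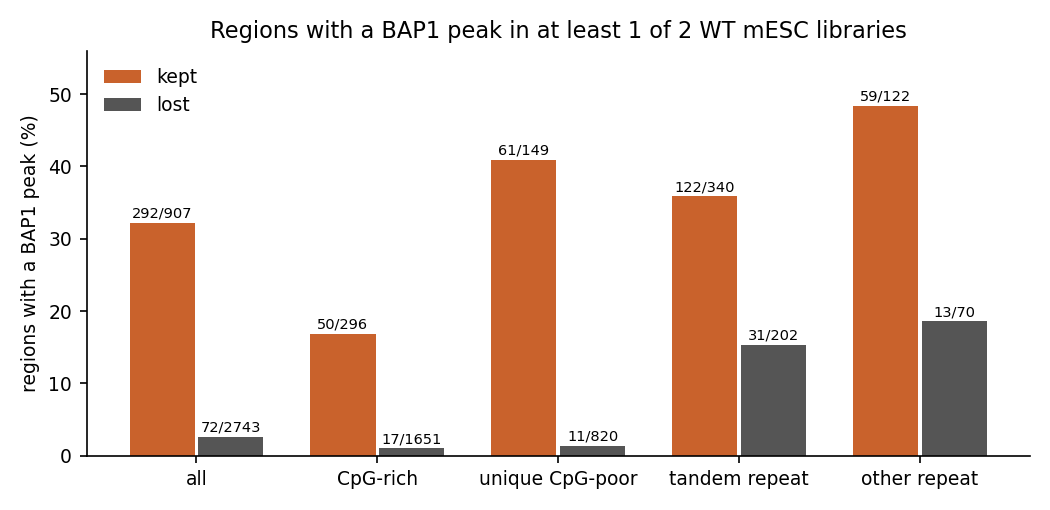
Share of regions with a BAP1 peak in at least 1 of the 2 WT mESC libraries (y axis, %) for kept and lost regions, over all regions and by sequence class (x axis), with the number of regions over each bar. A peak lay on 292 of 907 kept and 72 of 2743 lost regions.

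Named regions ranged from full BAP1 cover to none. BAP1 peaks covered 100% of the AACCCT region chr3:159939259-159939851 in both libraries and 100% and 99.6% of the Chl1 intron, and Relb was covered to 52.3% and 54.0%. The promoters of Ankrd50, Numb, Pdia4, Hdac4, Cbx8, Nsun2 and Zfpm1 had no BAP1 peak in either library. At Hspa8 and Rnf44 a BAP1 peak was listed in 1 of the 2 libraries.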

How the data were processed

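H2AK119ub and BAP1 CUT&Tag libraries of mouse HSPCs and mESCs were analysed from their peak lists, and the 12 K-562 libraries of the series were not used. According to the methods, the authors trimmed reads with Trimmomatic (version 0.39), aligned them with Bowtie2 (version 2.4.1) to mm10 together with the Drosophila spike-in genome, removed duplicates with Picard and called broad peaks per library with MACS2 at a cutoff of 0.01. The deposited fold enrichment of a peak is its ratio to the local background of its own library, and the deposited −log10 q-value is that of the same MACS2 call. Depth is unknown from peak lists, no spike-in scaling enters them, and aligned reads of multi-copy sequence have 1 position each.

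Genes were taken from GENCODE vM21 and sequence from the mm10 reference and the RefSeq tables of GRCm38.p6. Marked regions and covered percentages were computed with Python (version 3.11.15), numpy (version 2.4.6) and pandas (version 2.3.3). Cover of all kept bases was compared by exact two-sided permutation of libraries, also in Python. The tools bedtools (version 2.31.1) and scipy (version 1.17.1) served only to check these steps. Single regions were compared with limma (version 3.58.1, R version 4.3.3) on the percentage covered. Of all 44119 regions, those with cover in at least 3 libraries of the set were tested, 33253 in the untransfected and 25415 in the siRNA-treated set. The limma step was tested on simulated data: of regions lowered by 40 or 80 percentage points in Tet2-KO siNC libraries, 41% and 66% were recovered over 25415 regions. There were 12 false calls among the unchanged regions. Noise in the simulation was drawn from a normal distribution, which the cover of real regions need not follow. The central windows were of 300 bases, 1 base shorter than planned, to match the RefSeq promoters, and the class of tandem repeats was added after the sequences had been seen.

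Regions were named by rule: the widest, those with the highest fold enrichment with shMbd6, the largest called differences, those at genes of 23 lists, those with a peak in all 27 libraries and those nearest to the limit of the overlap rule. The kept regions, the lists and the tests were chosen with earlier results of these data known. The alternatives tried were marked bases in all 3 of 3 libraries, peaks with a −log10 q of at least 5, scaling to equal covered length, no filter on cover, a replicate block, and leaving out libraries. Some sequences and a gene region are not reported here.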

Additional observations from a re-analysis of the deposited data

Results flagged for a closer look

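On CpG-rich kept regions, the difference in mean cover between the Tet2-KO and WT lines was larger in siNC-treated than in untransfected mESCs. The log2 ratio of mean cover, Tet2-KO over WT, was -0.64 with siNC (60.05% against 93.9%) and 0.03 in untransfected cells (95.6% against 93.6%), a difference of -0.67. Exact permutation of the genotype labels within each of these 2 sets, over 400 assignments, gave p = 0.005 (two-sided), or 0.03 after Benjamini-Hochberg adjustment over the 6 region classes tested. This permutation assumes no difference between the lines in either set, so a difference in the siNC set alone can make p small. It cannot decide whether the differences in the 2 sets are unequal. The lost regions differed by -1.47 (exact permutation p = 0.025, adjusted 0.075) and the kept tandem repeats by 0.10 (p = 0.645). The Tet2-KO siNC libraries had 4314 to 9461 peaks and the untransfected Tet2-KO libraries 26404 to 35617, and the part of this in the difference was not tested.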

How the results depend on the processing

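The alternatives with replicate 1 of every group left out, and the differences between classes, were chosen after seeing the data. Marked bases in all 3 of 3 libraries left 519 kept regions, with 26.8% at protein-coding promoters, 51.9% of bases soft-masked, 25.8% CpG-rich by GC and CpG alone (33.7% as reported on that measure) and 95.0% covered with shMbd6 (89.6% as reported), and the differences in kept cover became +3.48 points for Tet2-KO against WT siNC and -0.762 for siMbd6. Peaks with a −log10 q of at least 5 left 416 regions, with 24.0%, 55.5% and 22.8% on the same first 3 measures, and differences of +0.433 for Tet2-KO siNC and -4.09 for siMbd6. Scaling to equal covered length turned the cover differences to -4.44 (untransfected), +99.0 (siNC), -18.9 (siMbd6) and +1.87 (siNsun2), left 10, 0 and 0 calls for untransfected Tet2 KO, siMbd6 and siNsun2, and turned Fcgr3 (+130), Tmem256 (+76.5), Nsun2 (+67.0) and Relb (+78.4) in Tet2-KO siNC cells. The difference of the Tet2 effects on all kept bases was -0.15 as reported, 2.16 scaled (exact permutation p = 0.035) and -0.44 with the stricter q (exact permutation p = 0.04). These permutations also assume no difference between the lines in either set and cannot decide whether the effects are unequal. Leaving out 1 library moved the promoter share between 28.7% and 37.0%, the soft-masked share between 42.1% and 49.5%, the CpG-rich share between 27.3% and 35.2% and shMbd6 cover between 90.7% and 92.1%, and moved the cover differences between -6.88 and 1.42 (Tet2-KO siNC), -3.95 and 5.28 (siMbd6) and -5.48 and 3.80 (siNsun2). Calls then ran from 5 to 17 untransfected (0.693% to 2.33% of kept, against 1.70% to 6.46% of all regions) and 79 to 203 with siNC (9.73% to 24.4%, against 35.3% to 65.0%). They ran from 3 to 6 with siMbd6 (0.358% to 0.721%, against 0.224% to 1.07%) and 3 to 7 with siNsun2 (0.357% to 0.832%, against 0.0720% to 0.308%). Without replicate 1 of every group they were 0, 78 (9.62%, against 36.2%), 0 and 0. The causes of these changes were not tested, but all settings that leave out libraries also test fewer regions. Kept minus lost cover and CpG-rich minus tandem-repeat cover in Tet2-KO siNC cells kept their direction when any 1 library was left out (39.3 to 41.3 points and -43.0 to -37.8 points). Deviations from the group means correlated by 0.0116 to 0.236 between same-numbered libraries and by -0.155 to 0.0614 between differently numbered ones. The ranges overlapped, but every same-numbered correlation was positive, and replicate 1 had the fewest peaks in every mESC group. The labels do not say whether the numbers pair the samples, and the tests reported took the libraries as unpaired. With a replicate block, calls were 11 of untransfected Tet2 KO (20 as reported) and 229 of siNC (208). These were 1.48% and 27.2% of kept regions, against 5.32% and 70.9% of all regions. There were 2 of siMbd6 (2) and 2 of siNsun2 (3), 0.238% of kept regions each, against 0.0984% and 0.0275% of all regions. Coding regions as present or absent could not be fitted in limma. Of 466 single-region calls over the alternatives, 351 stayed past the threshold, 111 did not and 4 changed sign. Depth is unknown, and thin libraries limit all counts.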
